A study of Mus musculus with 22 samples.

Results

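Matrix metalloproteases, ADAMTS proteases and tissue inhibitors of metalloproteases were followed through 10 of the 23997 genes in the deposited expression table. They were taken by name as Mmp2, Mmp3, Mmp7, Mmp9, Mmp10, Mmp14, Adamts1, Adamts4, Timp1 and Timp3. Their levels were read in 22 RNA-seq libraries of colon from wild type BALB/c mice, which entered at 5 weeks of age and drank their assigned water for 3 weeks. In the DSS group (5 libraries) the water was distilled and held 5% dextran sulfate sodium in the last week, a sulfated polymer that damages the lining of the colon and is used to model colitis. In the HMLS group (4 libraries) and the TM group (5 libraries) it was a deep sea water, known from the labels only by that abbreviation, with the same 5% dextran sulfate sodium in the last week. The CON group (8 libraries) had distilled water without dextran sulfate sodium. The title of the series presents deep sea water as anti-inflammatory, so the comparisons ask how colitis altered these genes and whether either water altered them during colitis. No library of a deep sea water without dextran sulfate sodium was analysed here. The labels do not say that the libraries come from separate mice, so the p-values measure only the spread between libraries, which may be technical.

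Matrix metalloproteases are zinc endopeptidases made as inactive proenzymes, which together can cleave most proteins of the extracellular matrix and many cytokines and receptors. ADAMTS proteases are secreted relatives with thrombospondin motifs, and Adamts1 and Adamts4 cleave the large proteoglycans versican and aggrecan. Tissue inhibitors of metalloproteases (TIMPs) block the active site, and Timp3, which stays bound to the matrix, also inhibits ADAMTS and ADAM enzymes. In inflamed colon these proteases are known to come from fibroblasts, epithelium and infiltrating leukocytes.

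The unit of the levels was taken to be FPKM, which scales fragments by transcript length and by library size, and how many reads lie behind a value is unknown. The libraries held 48089882 to 68733410 reads. The mapped share was 82.3% to 88.9% in DSS, 88.8% to 90.5% in HMLS, 89.5% to 92.7% in TM and 89.9% to 91.9% in CON, with all 5 DSS libraries under the lowest CON library. All 10 colon epithelium markers, such as the adhesion protein gene Epcam and the mucin gene Muc2, were detected in each group, and their FPKM summed to 10508 to 16527 in DSS, 11643 to 12278 in HMLS, 10515 to 12166 in TM and 12835 to 17278 in CON.

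Of the 10 genes, Adamts1 and Adamts4 rose in DSS against CON, Adamts1 rose in HMLS against CON, and Adamts1, Adamts4, Mmp3 and Timp3 rose in TM against CON. None passed the test as lower in those comparisons, and none passed between the colitis groups. A gene counted as called at a Benjamini-Hochberg adjusted p under 0.05 in limma, and changes are log2 fold changes of FPKM + 1, a scale that understates the change of genes near or under 1 FPKM. Only genes that reached 1 FPKM in 4 or more libraries of a fit were tested. In DSS against CON 2 of the 8 members tested were called, which is 25% beside 27.1% of all 13483 genes tested (14% higher, 13.1% lower). In HMLS against CON 1 of 7 was called, beside 34.1% of 13400 genes (17.5% higher, 16.6% lower). The first 2 shares were no higher than the background, so these counts are not a result about the members. In TM against CON 4 of 7 were called, or 57.1%, beside 26% of 13485 genes (14.3% higher, 11.8% lower). Of these 4, Mmp3 and Timp3 lost the call with all 4 groups in the fit (adjusted p = 0.073 and 0.192). The members were also chosen with earlier results of these data known. Mmp3 and Mmp10 passed the filter on low values largely through colitis libraries, so such counts only describe the data. Mmp9 and Timp1 were below the filter in every comparison with CON, and Mmp10 in HMLS and TM against CON. The 3 comparisons share the CON libraries and are not independent of each other.

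**Figure D1:**
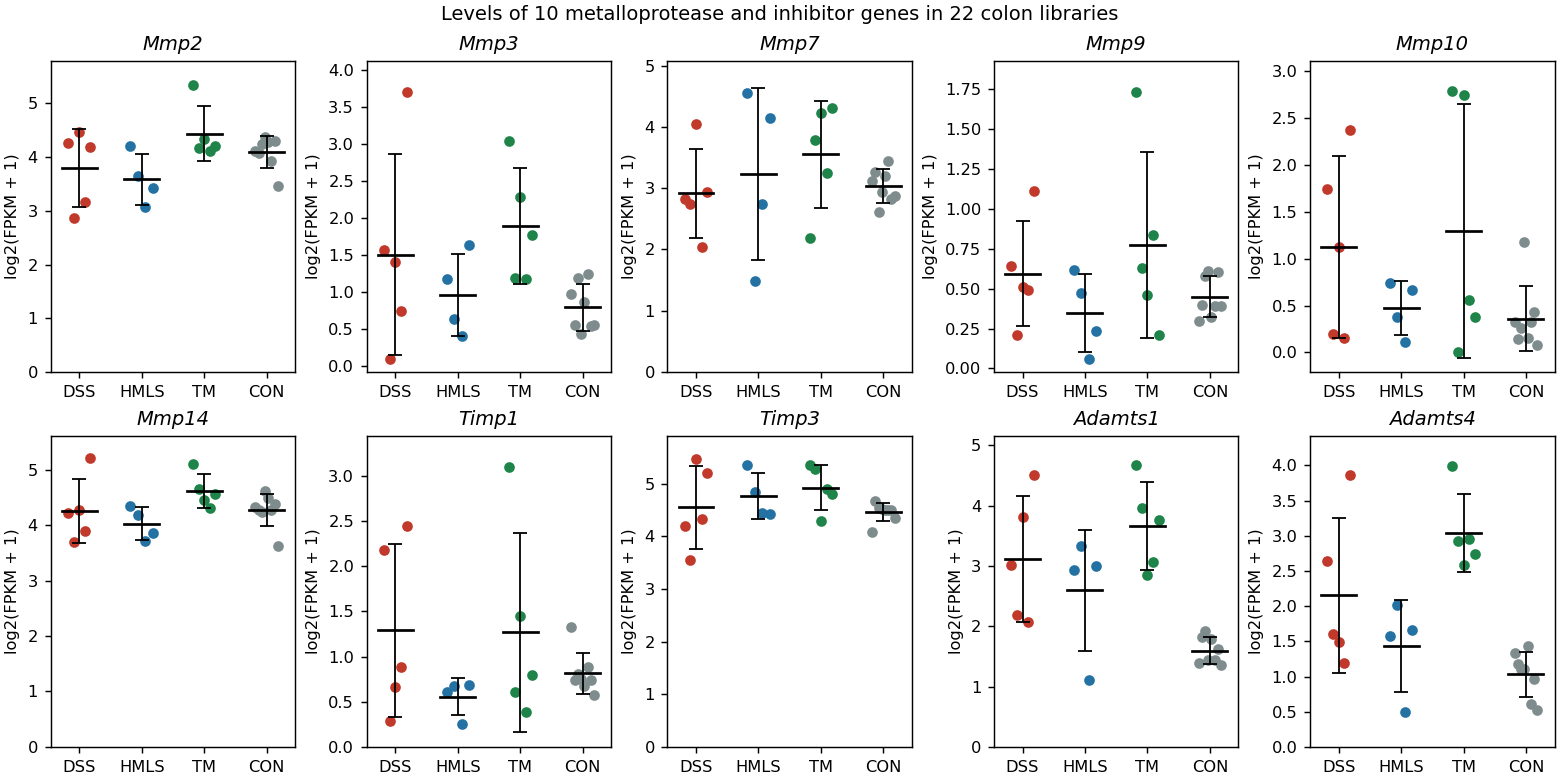
Level of each of the 10 genes as log2(FPKM + 1) on the vertical axis, by group on the horizontal axis, where points are libraries (DSS 5, HMLS 4, TM 5, CON 8), bars are means and whiskers are SD. Adamts1 and Adamts4 lie higher in all 5 TM libraries than in any CON library, while Mmp14 and Mmp2 overlap between all groups and Mmp9 stays mostly under 1 FPKM.

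Adamts1 (chr16:85793827-85803113, minus strand, GRCm38) had 7.08, 3.54, 13.01, 3.19 and 21.8 FPKM in DSS libraries 1, 2, 5, 6 and 7, 6.68, 9.02, 1.15 and 7.04 FPKM in HMLS libraries 3, 6, 7 and 8, and 24.6, 14.6, 6.19, 7.38 and 12.5 FPKM in TM libraries 3, 5, 6, 7 and 8. In CON it had 1.56 FPKM at the lowest, 1.90 at the median and 2.78 at the highest. All 5 DSS and all 5 TM libraries were above the highest CON library, and so were 3 of 4 HMLS libraries, while HMLS 7 was below all CON libraries. The log2 fold change was 1.52 ± 0.33 (SE) in DSS against CON (adjusted p = 0.00518), 0.997 ± 0.31 in HMLS against CON (0.024) and 2.07 ± 0.24 in TM against CON (0.00012). By median level the order was TM, DSS, HMLS and CON, with the levels of the 3 colitis groups overlapping. In bulk tissue, more cells that make a transcript and more transcript per cell cannot be told apart, here or for the genes that follow. With the percent of reads mapped as a covariate, the change was 0.90 in DSS against CON (adjusted p = 0.401) and 0.61 in HMLS against CON (0.246), neither past the threshold, and 2.09 in TM against CON (0.000211). The HMLS call was also lost without HMLS 3 (0.88, adjusted p = 0.0733), HMLS 6 (0.75, 0.084) or HMLS 8 (0.86, 0.088) and with all 4 groups in the fit (0.997, 0.0757).

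Adamts4 (chr1:171250421-171260637, plus strand) showed its highest levels in TM. It had 5.21, 2.03, 1.80, 1.29 and 13.5 FPKM in DSS libraries 1, 2, 5, 6 and 7, 1.98, 3.04, 0.412 and 2.16 FPKM in HMLS libraries 3, 6, 7 and 8, and 14.9, 6.58, 4.99, 6.73 and 5.70 FPKM in TM libraries 3, 5, 6, 7 and 8. In CON it ran between 0.444 and 1.69 FPKM with a median of 1.15. All 5 TM libraries were above every CON library, 4 of 5 DSS libraries and 3 of 4 HMLS libraries were above the highest CON library, and DSS 6 and HMLS 7 were within or below the CON range. The log2 fold change was 1.12 ± 0.36 (SE) in DSS against CON (adjusted p = 0.0315), 0.41 ± 0.24 in HMLS against CON (0.204, interval -0.11 to 0.92) and 2.01 ± 0.22 in TM against CON (6.6e-05). Among all 13485 genes tested in TM against CON, Adamts4 ranked 21 and Adamts1 ranked 41 by p. The DSS call was lost without DSS 7 (0.70, adjusted p = 0.0565), DSS 1 (1.002, 0.063) or CON 6 (1.063, 0.0524) and with the percent of reads mapped as a covariate (0.18, 0.887). The HMLS value passed the threshold without HMLS 7 (0.72, adjusted p = 0.012).

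The summed level of the neutrophil marker list was above every CON library in 13 of the 14 colitis libraries, HMLS 7 being the exception. Of its 10 genes 9 were in the table, and their FPKM summed to 3.04 to 74.1 in DSS, 2.42 to 24.5 in HMLS, 5.79 to 97.9 in TM and 1.01 to 2.66 in CON. The granule gene Elane was at 0 in HMLS, TM and CON and Camp was at 0 in DSS, and 6 of the 9 had a median under 1 FPKM in every colitis group. DSS 7 and TM 3 held the highest sums of their groups and also the highest Adamts1 and Adamts4 levels of their groups, and HMLS 7 held the lowest of all colitis libraries in each. Other libraries ranked differently: TM 8 had the lowest sum of its group (5.79 FPKM) but more Adamts1 than TM 6 and TM 7, and DSS 5 had the second highest sum of its group (20.1 FPKM) but the second lowest Adamts4. In the adipocyte marker list, 6 of 7 tested genes fell in DSS and in TM in limma and none of 7 was called in HMLS, with median log2 fold changes against CON of -2.06 in DSS, -2.03 in TM and -1.20 in HMLS. Of all genes tested, 13.1% fell in DSS, 11.8% in TM and 16.6% in HMLS. All 8 adipocyte markers were in the table, none at 0 throughout a group, and they summed to 48.4 to 131 FPKM in DSS, 46.6 to 475 in HMLS, 36.9 to 103 in TM and 77.9 to 978 in CON. The part of these cell types in the result was not tested.

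Mmp3 (stromelysin 1) and Mmp10 (stromelysin 2) cleave proteoglycans, fibronectin and other proenzymes of the family, and Mmp7 (matrilysin) is an epithelial protease that in mouse small intestine activates Paneth cell defensins. All 3 genes lie in a cluster of 10 Mmp genes on chromosome 9. Promoter sequences from RefSeq (GRCm38.p6) covered 7 of the 10 members and are shown for these 3 because each holds the AP-1 type motif TGANTCA, written in capitals. The sequences are the 250 bases before the annotated start, 5′ to 3′ on the plus strand, at chr9:7445572-7445821 for Mmp3, chr9:7502092-7502341 for Mmp10 and chr9:7691840-7692089 for Mmp7.
Mmp3: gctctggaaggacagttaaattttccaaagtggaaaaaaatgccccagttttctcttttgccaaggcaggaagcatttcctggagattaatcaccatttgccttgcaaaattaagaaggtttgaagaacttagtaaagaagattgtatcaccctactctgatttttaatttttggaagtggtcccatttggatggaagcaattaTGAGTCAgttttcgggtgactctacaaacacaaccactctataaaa
Mmp10: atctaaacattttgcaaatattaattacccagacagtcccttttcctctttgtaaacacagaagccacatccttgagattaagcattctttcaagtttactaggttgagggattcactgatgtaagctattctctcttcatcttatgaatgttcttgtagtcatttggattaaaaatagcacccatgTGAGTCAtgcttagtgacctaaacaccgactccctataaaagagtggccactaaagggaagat
Mmp7: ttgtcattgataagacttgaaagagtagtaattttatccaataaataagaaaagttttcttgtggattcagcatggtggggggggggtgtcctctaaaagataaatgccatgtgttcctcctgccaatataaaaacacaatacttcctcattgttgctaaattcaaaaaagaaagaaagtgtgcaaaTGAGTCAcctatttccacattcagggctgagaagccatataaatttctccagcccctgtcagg
The match begins 46 bases before the start in Mmp3, 63 in Mmp10 and 63 in Mmp7, and it reads TGAGTCA in all 3. On either strand, 6.75% of the 32851 promoter windows of this length hold TGANTCA. The windows of Timp1, Timp3, Mmp14 and Adamts1, and that of a second annotated start of Mmp7, hold no match. A match describes the letters and shows no binding.

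Mmp3 (chr9:7445822-7455975) spread more widely among the DSS libraries than any other member. It had 1.95, 0.0757, 1.65, 0.684 and 12.01 FPKM in DSS libraries 1, 2, 5, 6 and 7, 1.26, 0.562, 0.328 and 2.11 FPKM in HMLS libraries 3, 6, 7 and 8, and 7.17, 1.29, 3.85, 1.26 and 2.41 FPKM in TM libraries 3, 5, 6, 7 and 8. In CON it had 0.355 FPKM at the lowest, 0.648 at the median and 1.36 at the highest. The groups overlapped throughout, with 3 of 5 DSS, 1 of 4 HMLS and 3 of 5 TM libraries above the highest CON library, and DSS 2 and HMLS 7 below the lowest. Its log2 fold change was 0.71 ± 0.43 (SE) in DSS against CON (adjusted p = 0.227), 0.17 ± 0.22 in HMLS against CON (0.576) and 1.09 ± 0.27 in TM against CON (0.00963). The TM call was lost with all 4 groups in the fit (1.09, adjusted p = 0.073), and the DSS value turned to -0.605 with the percent of reads mapped as a covariate (0.611).

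Mmp10 (chr9:7502352-7510240) was near 0 in most libraries and high in a few. It had 2.35, 0.144, 1.18, 0.116 and 4.18 FPKM in DSS libraries 1, 2, 5, 6 and 7, 0.673, 0.301, 0.0788 and 0.588 FPKM in HMLS libraries 3, 6, 7 and 8, and 5.89, 0, 5.67, 0.473 and 0.301 FPKM in TM libraries 3, 5, 6, 7 and 8. In CON it had 0.0586 FPKM at the lowest, 0.223 at the median and 1.27 at the highest. TM 3 and TM 6 stood about level at the top, DSS 7 and DSS 1 came next, and all 4 HMLS libraries stayed within the CON range. In DSS against CON the log2 difference of 0.76 ± 0.33 (SE) missed the threshold (adjusted p = 0.0929). It passed without DSS 2 (0.99, 0.0386) or DSS 6 (0.999, 0.0328), 2 libraries with low values. Without DSS 1, DSS 5, DSS 7 or CON 4, the only libraries of this fit with 1 FPKM or more, Mmp10 fell below the filter and was not tested. Without the filter, the difference was 0.11 ± 0.18 in HMLS against CON (adjusted p = 0.686) and 0.93 ± 0.43 in TM against CON (0.165).

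Mmp7 (chr9:7692090-7699585) went to both sides of CON in the colitis groups. It had 6.05, 5.66, 15.6, 3.10 and 6.65 FPKM in DSS libraries 1, 2, 5, 6 and 7, 22.4, 1.79, 5.71 and 16.7 FPKM in HMLS libraries 3, 6, 7 and 8, and 3.54, 12.7, 17.8, 8.53 and 18.8 FPKM in TM libraries 3, 5, 6, 7 and 8. In CON it ran between 5.07 and 9.91 FPKM with a median of 7.18. HMLS held both the highest and the lowest of the 22 values, and every colitis group had libraries above and below the CON range. Mmp7 had a log2 fold change of -0.12 ± 0.25 (SE) in DSS against CON (adjusted p = 0.748), 0.20 ± 0.45 in HMLS against CON (0.758) and 0.52 ± 0.29 in TM against CON (0.202). Without TM 3 the TM value was 0.86 and passed (adjusted p = 0.00401). Of the other 5 Paneth cell markers in the table, the defensin genes Defa17 and Defa26 were at 0 in all libraries, and the lysozyme gene Lyz1 fell by 0.87 in DSS (adjusted p = 0.023). The antisense gene AV064505 overlaps the start of Mmp7 and has no value in the table.

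**Figure D2:**
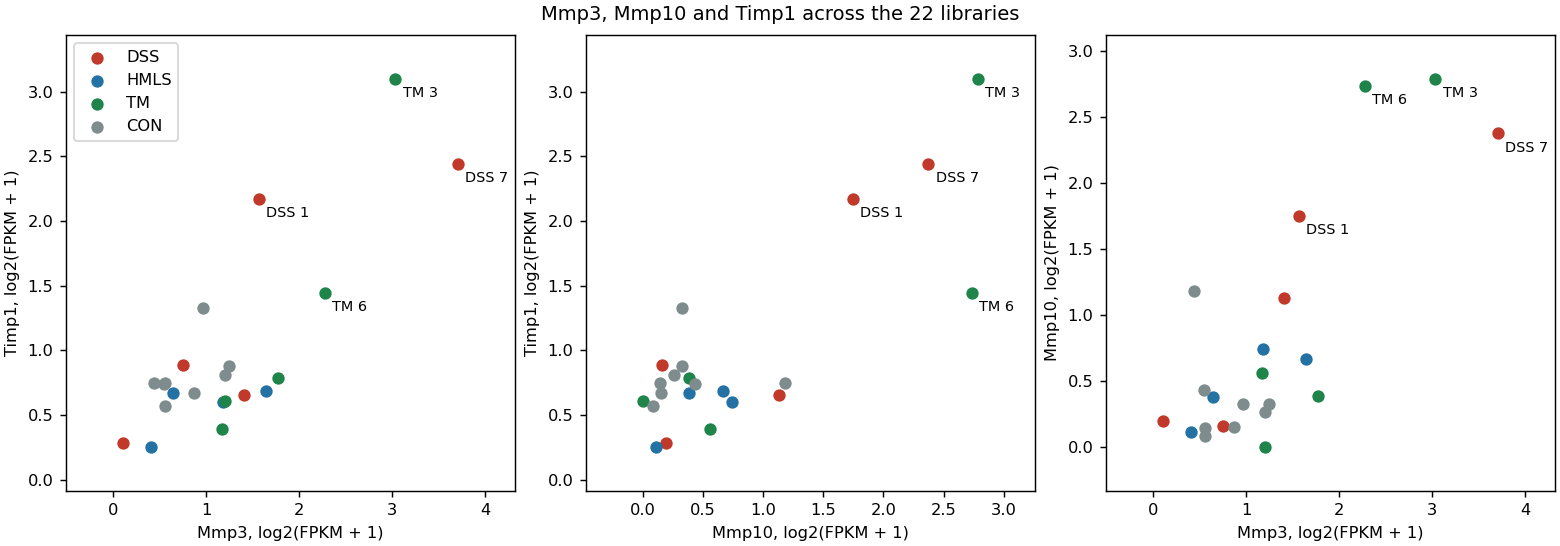
Log2(FPKM + 1) of Mmp3, Mmp10 and Timp1 against each other in 3 panels, where each point is a library coloured by group. TM 3 and DSS 7 lie at the upper right of all 3 panels, DSS 1 and TM 6 are high for Mmp10, and most other libraries lie close together near the origin.

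The gelatinases Mmp2 and Mmp9 cleave denatured collagen and basement membrane collagen, and Mmp14, a membrane-bound metalloprotease, cleaves fibrillar collagen and activates the Mmp2 proenzyme. Mmp2 (chr8:92827291-92853420) had 18.3, 6.27, 21.2, 7.98 and 17.3 FPKM in DSS libraries 1, 2, 5, 6 and 7, 17.5, 11.6, 7.45 and 9.76 FPKM in HMLS libraries 3, 6, 7 and 8, and 39.4, 17.1, 19.2, 16.3 and 17.4 FPKM in TM libraries 3, 5, 6, 7 and 8. In CON it ran between 9.99 and 19.8 FPKM with a median of 17.1. TM 3 stood alone at the top, and DSS 2, DSS 6, HMLS 7 and HMLS 8 lay below the lowest CON library. The log2 fold change was -0.30 ± 0.25 (SE) in DSS against CON (adjusted p = 0.376), -0.50 ± 0.19 in HMLS against CON (0.0539) and 0.33 ± 0.20 in TM against CON (0.221). The HMLS value passed as lower without HMLS 3 (-0.71, adjusted p = 0.00967) or CON 8 (-0.60, 0.0143), with median-ratio scaling (-0.54, 0.0471) and with the percent of reads mapped as a covariate (-0.73, 0.0386). It was farther from passing without HMLS 7 (-0.33, adjusted p = 0.188), with all 4 groups in the fit (-0.50, 0.177) and with the replicate number as a block (-0.39, 0.268).

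Mmp14 (chr14:54431612-54445364) was expressed at 11.3 FPKM or more in every library. It had 17.6, 12.01, 18.3, 13.8 and 35.9 FPKM in DSS libraries 1, 2, 5, 6 and 7, 19.4, 17.1, 12.1 and 13.6 FPKM in HMLS libraries 3, 6, 7 and 8, and 33.3, 24.1, 20.9, 18.7 and 22.7 FPKM in TM libraries 3, 5, 6, 7 and 8. In CON it ran between 11.3 and 23.3 FPKM with a median of 18.7. DSS 7 and TM 3 were the highest libraries, and all groups overlapped. Against CON the log2 fold change was -0.02 in DSS against CON (adjusted p = 0.953, interval -0.47 to 0.43), -0.25 in HMLS against CON (0.247, interval -0.59 to 0.10) and 0.34 in TM against CON (0.114, interval 0.01 to 0.66). The HMLS value passed as lower without CON 8 (-0.34, adjusted p = 0.047), the lowest CON library.

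Mmp9 (chr2:164940780-164955850), which neutrophils store in granules, was the lowest member by its median over the libraries apart from Mmp10. It had 0.561, 0.156, 0.427, 0.405 and 1.16 FPKM in DSS libraries 1, 2, 5, 6 and 7, 0.530, 0.385, 0.0441 and 0.179 FPKM in HMLS libraries 3, 6, 7 and 8, and 2.32, 0.548, 0.373, 0.788 and 0.159 FPKM in TM libraries 3, 5, 6, 7 and 8. In CON it ran between 0.231 and 0.530 FPKM with a median of 0.314. Only DSS 7 and TM 3 reached 1 FPKM. Without the filter, the log2 difference was 0.14 ± 0.12 (SE) in DSS against CON (adjusted p = 0.467), -0.10 ± 0.10 in HMLS against CON (0.518) and 0.32 ± 0.19 in TM against CON (0.277).

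Most fibroblast markers, which include collagens that these proteases cleave, fell in DSS and HMLS, where Mmp2 and Mmp14 were not called. All 9 markers were in the table, none was at 0 throughout a group, and their FPKM summed to 88.0 to 231 in DSS, 121 to 174 in HMLS, 135 to 506 in TM and 266 to 412 in CON. TM 3, with the highest Mmp2 level, also held the highest fibroblast sum, 506 FPKM, and DSS 2, with the lowest Mmp2 level, held the lowest. Against CON, 7 of 9 markers fell in DSS, 7 of 9 in HMLS and 3 of 9 in TM, and none rose. Of all genes tested, 13.1% fell in DSS, 16.6% in HMLS and 11.8% in TM. The part of fibroblasts in the results for Mmp2 and Mmp14 was not tested.

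Of the 2 inhibitors Timp3 was called, in TM. Timp3 (chr10:86300372-86349506) had 17.3, 10.7, 43.3, 19.1 and 35.9 FPKM in DSS libraries 1, 2, 5, 6 and 7, 39.7, 27.6, 20.6 and 20.4 FPKM in HMLS libraries 3, 6, 7 and 8, and 40.0, 37.9, 18.5, 28.7 and 27.0 FPKM in TM libraries 3, 5, 6, 7 and 8. In CON it ran between 16.0 and 24.4 FPKM with a median of 21.7. The groups overlapped, with 4 of 5 TM libraries, 2 of 5 DSS libraries and 2 of 4 HMLS libraries above the highest CON library. The log2 fold change was 0.09 ± 0.25 (SE) in DSS against CON (adjusted p = 0.807), 0.30 ± 0.16 in HMLS against CON (0.143) and 0.47 ± 0.15 in TM against CON (0.0343). The TM call was lost without TM 3 (0.36, adjusted p = 0.0766), TM 5 (0.38, 0.103), TM 7 (0.47, 0.0623) or CON 1 (0.41, 0.0583), with no filter (adjusted p = 0.054) and with all 4 groups in the fit (0.192).

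Timp1 (chrX:20870166-20874735), the inducible inhibitor of the family, had 3.51, 0.216, 0.578, 0.848 and 4.43 FPKM in DSS libraries 1, 2, 5, 6 and 7. It had 0.518, 0.596, 0.195 and 0.612 FPKM in HMLS libraries 3, 6, 7 and 8, 7.55, 0.528, 1.72, 0.310 and 0.730 FPKM in TM libraries 3, 5, 6, 7 and 8, and 0.489 to 1.51 FPKM in CON with a median of 0.677. TM 3, DSS 7, DSS 1 and TM 6 stood above all CON libraries, and the other 10 colitis libraries were within or below the CON range. Without the filter, the log2 difference was 0.48 ± 0.31 (SE) in DSS against CON (adjusted p = 0.331), -0.26 ± 0.13 in HMLS against CON (0.198) and 0.45 ± 0.34 in TM against CON (0.423). Timp1 lies within the opposite-strand gene Syn1 and Timp3 within Syn3, which encode synapsins and had 0.788 to 3.93 FPKM and 1.24 to 3.86 FPKM. Neither Syn1 nor Syn3 was called in any comparison, and the FPKM ranges of Timp1 and Syn1 overlapped. The sources used here do not say whether the authors' counting used strand.

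**Figure D3:**
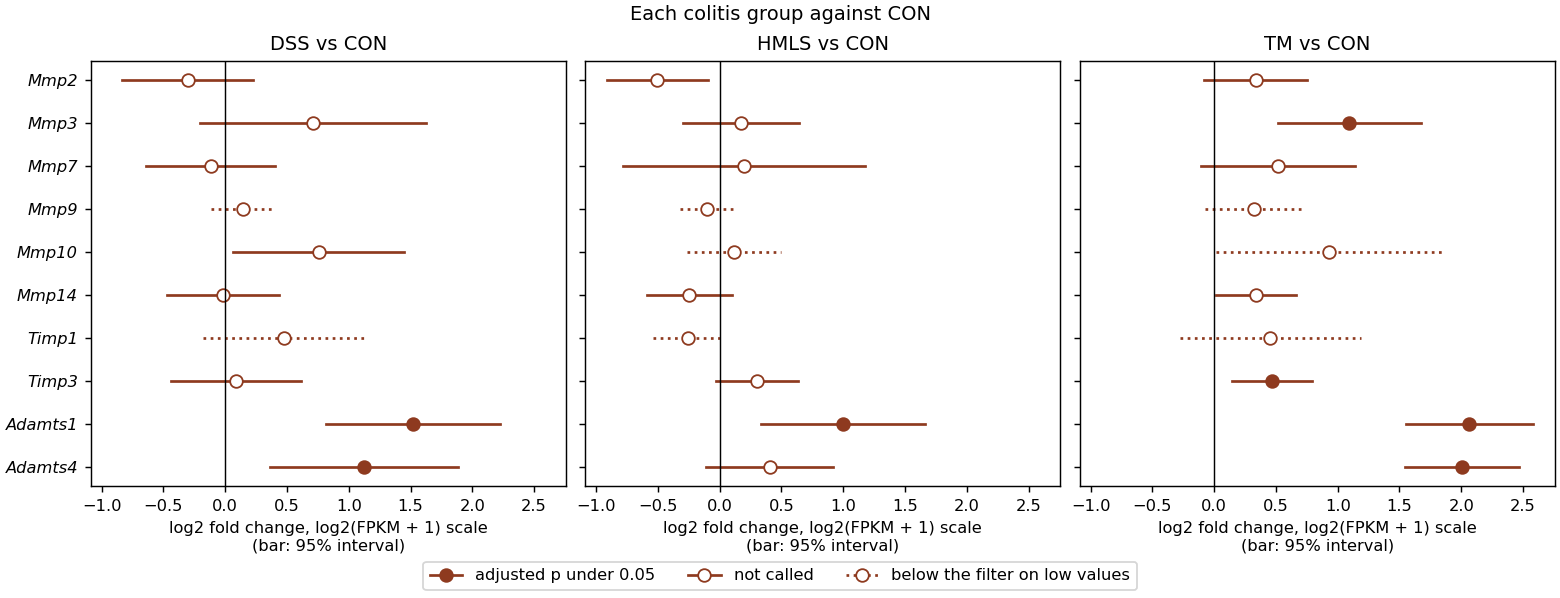
Log2 fold change of each gene in DSS, HMLS and TM against CON in 3 panels, with bars for the 95% interval, filled points for an adjusted p under 0.05 and dotted bars for genes below the filter on low values. Filled points are Adamts1 and Adamts4 in DSS, Adamts1 in HMLS, and Adamts1, Adamts4, Mmp3 and Timp3 in TM, all to the right of 0.

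With the colitis groups set against each other, no member passed in any comparison, and neither did any other gene of the 13341 tested (0%) in limma. At an unadjusted p under 0.05 the counts over all genes were 740 in HMLS against DSS (5.55%), 367 in TM against DSS (2.75%) and 1260 in HMLS against TM (9.44%). Mmp9 was below the filter in all 3. Among the members, none had an unadjusted p under 0.05 in HMLS against DSS or TM against DSS, by limma or by the exact permutation test. In HMLS against TM, Mmp2, Mmp14 and Adamts4 did, by both.

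Among the members, the sharpest contrast between the waters was in Adamts4. Its 4 HMLS values, 0.412 to 3.04 FPKM, all lay below its 5 TM values, 4.99 to 14.9 FPKM. The share of all genes whose values do not overlap between HMLS and TM was not computed. By p in limma, Adamts4 ranked 151 among the 13341 genes tested. The log2 difference of HMLS minus TM was -1.60 ± 0.48 (SE), with an interval of -2.64 to -0.57, an unadjusted p of 0.00497 and an adjusted p of 0.436 in limma. Its two-sided exact permutation p was 0.00794, the smallest this design allows, with no adjustment. Mmp2 differed by -0.84 (interval -1.59 to -0.09, adjusted p = 0.497) and Mmp14 by -0.59 (interval -1.13 to -0.04, adjusted p = 0.507), and in both genes the groups overlapped. The difference was negative for all 10 members, with a median of -0.82 over the 9 tested beside -0.01 over all genes tested. Mmp10, whose own value is this median, and Timp1 passed the filter of this fit only through DSS and TM libraries. For both, 0 HMLS libraries reached 1 FPKM. The filter thus favoured a lower HMLS value in both, so the count and the median only describe the data. The 10 signs are not independent of each other: TM 3 was among the top 2 colitis libraries for 9 members and HMLS 7 among the lowest 2 for 8. Adamts1 differed by -1.07 with an interval of -2.25 to 0.12, and Mmp3 by -0.92 with an interval of -2.17 to 0.32. The macrophage marker sum also separated these groups, at 54.0 to 126 FPKM in HMLS and 153 to 231 FPKM in TM. It was 72.2 to 154 FPKM in DSS and 90.7 to 204 FPKM in CON, so the TM range overlapped that of CON. Of the 10 markers 9 were in the table, none at 0 throughout a group, and the part of this cell type in the result was not tested.

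In HMLS against DSS, 8 of 10 members, with Mmp9 below the filter among them, had a negative difference and the intervals were wide. Without DSS 7, Mmp3 (0.0097) and Mmp14 (0.0091) turned positive. The members' signs here and in TM against DSS are not independent of each other, since the same libraries enter all of them. The share of all genes with each sign was not computed. Adamts4 differed by -0.72 (interval -1.75 to 0.32, adjusted p = 0.853) and Timp1 by -0.73 (interval -1.85 to 0.39, adjusted p = 0.854). Mmp10 differed by -0.65 (interval -1.93 to 0.64, adjusted p = 0.883) and Mmp3 by -0.54 (interval -1.79 to 0.71, adjusted p = 0.897). Since no HMLS library reached 1 FPKM for Timp1 or Mmp10, both passed the filter through DSS and TM libraries only. Their differences therefore only describe the data. In TM against DSS, 9 of 10 had a positive difference, the largest being Adamts4 at 0.88 (interval -0.09 to 1.86) and Mmp2 at 0.64 (interval -0.07 to 1.35), both with an adjusted p of 1. These values come from the fit without the replicate number. With it as a block, resting on the 3 numbers that TM and DSS share, 4 of 9 tested members were positive, with Adamts4 at 0.64 and Mmp2 at 0.26, and no member passed. Without the block, the interval reached past 1 on the log2 scale, in either direction, for 6 of 10 members in HMLS against DSS and for 8 of 10 in TM against DSS, so a difference of that size was not excluded for those members. The comparisons share libraries, and their values are given side by side only.

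**Figure D4:**
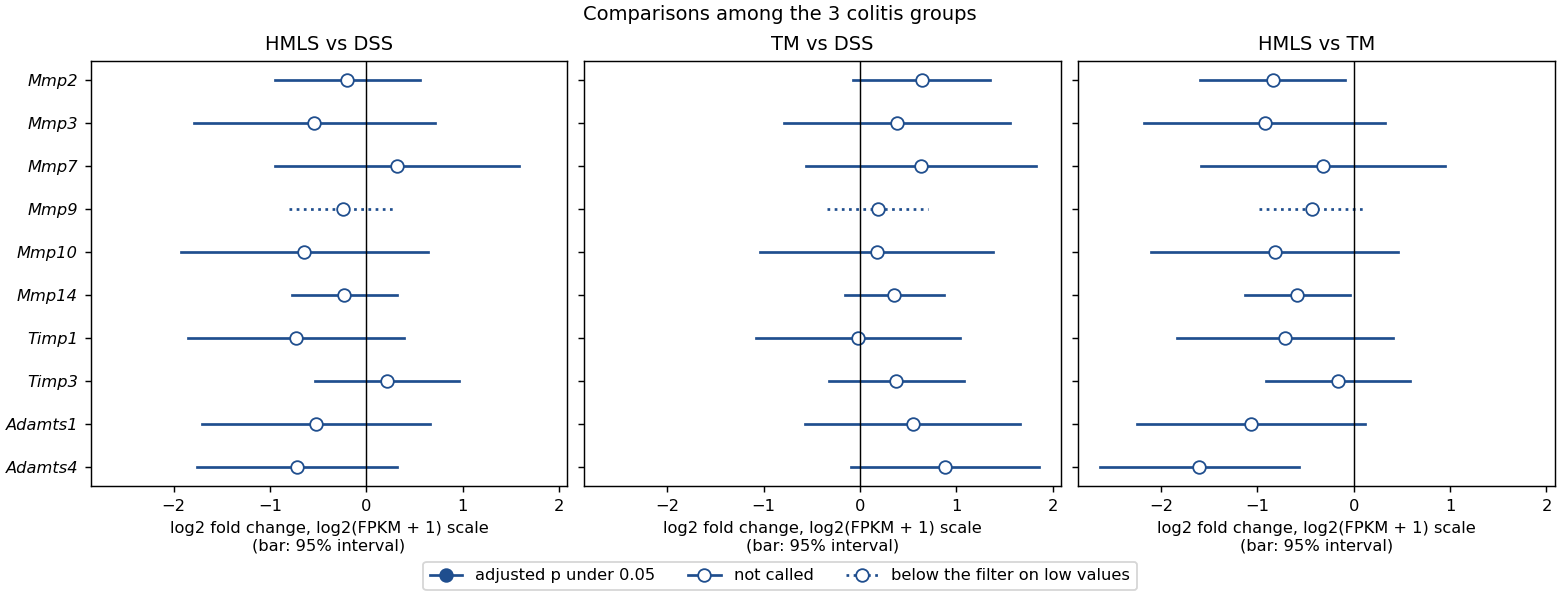
Log2 fold change of each gene, from the fit without the replicate number, in HMLS against DSS, TM against DSS and HMLS against TM in 3 panels, with bars for the 95% interval and dotted bars for the gene below the filter. No point is filled, and in HMLS against TM the intervals of Adamts4, Mmp2 and Mmp14 lie wholly left of 0.

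All 10 members had a larger SD among DSS and among TM libraries than among CON libraries, and 7 of 10 did among HMLS libraries. The share of all genes with a larger SD was not computed, so these counts are not a result about the members. On the log2 scale the SD of Adamts1 was 1.05 in DSS, 1.01 in HMLS, 0.73 in TM and 0.22 in CON. For Mmp7 it was 0.73 in DSS, 1.40 in HMLS, 0.87 in TM and 0.27 in CON. The same few libraries were often at the ends of the range. TM 3 was among the top 2 of the 14 colitis libraries for 9 of 10 members and the highest for 6, and DSS 7 was among the top 2 for 6. HMLS 7 was among the lowest 2 for 8 members and DSS 2 for 6.

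**Figure D5:**
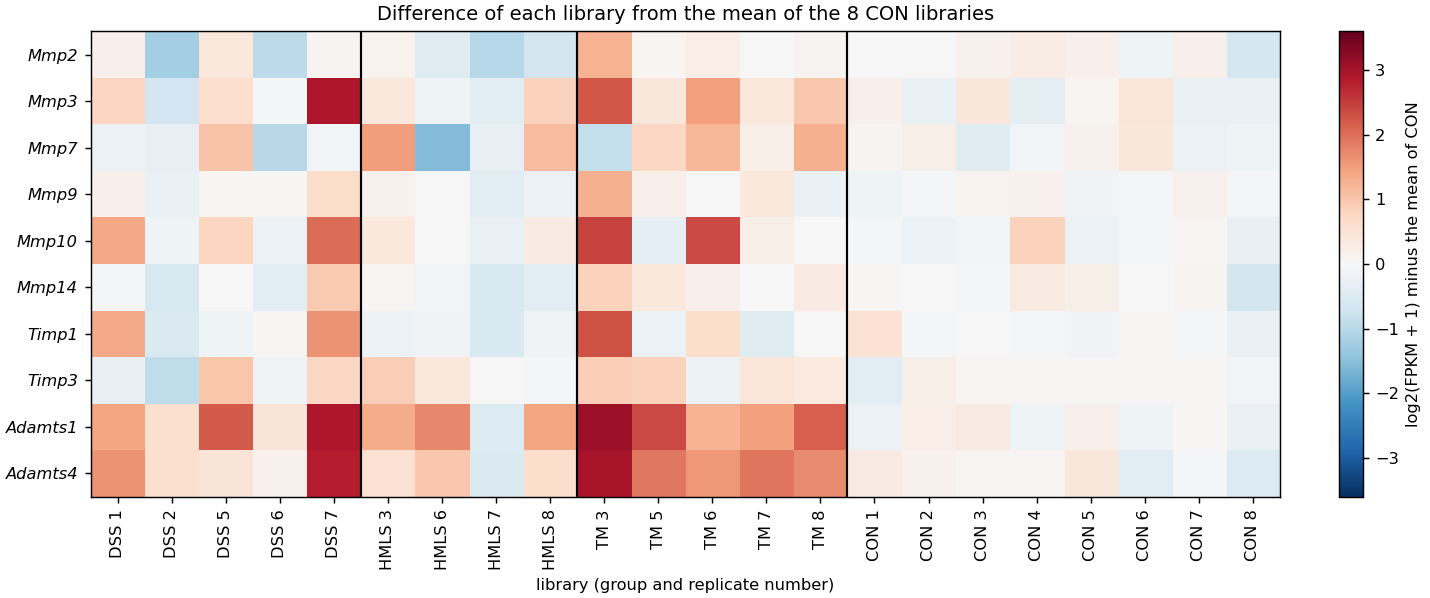
Difference of each library from the mean of the 8 CON libraries, as log2(FPKM + 1), with genes in rows and the 22 libraries in columns ordered DSS, HMLS, TM and CON. Red is above the CON mean and blue below it: the columns of DSS 7 and TM 3 are red for most genes, HMLS 7 and DSS 2 are mostly blue, and the rows of Adamts1 and Adamts4 are red in 13 of the 14 colitis libraries.

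Within the colitis groups most pairs of members moved together, while Mmp7 did not and Timp3 did so only with some members. Over the 14 colitis libraries with group means removed, Pearson's r of log2(FPKM + 1) was positive for 41 of the 45 pairs of members and over 0.5 for 31, with a median of 0.675, against a median of 0.182 over the 8 CON libraries. Mmp3 and Mmp10 had an r of 0.817 (Spearman's rho 0.890, r 0.840 without the 2 libraries farthest from the median). These 2 libraries were picked anew for each pair, by the level of 1 of its genes, so they can differ between pairs. Mmp10 and its inhibitor Timp1 had an r of 0.845 (rho 0.855, 0.878 without those 2), and Mmp3 and Timp1 0.819 (rho 0.846, 0.795). Adamts1 and Adamts4 had an r of 0.796 (0.707 without those 2), and Mmp14 had 0.853 with Mmp3 (0.606) and 0.848 with Adamts1 (0.788). Timp3 had 0.738 with Adamts1 but 0.205 with Mmp10 and 0.276 with Timp1, the last being -0.079 without those 2. Mmp7 ran from -0.377 with Mmp9 to 0.145 with Timp3. These values come from the same libraries, so shared depth and tissue makeup enter all of them, and they are given as a description. The median r over pairs of other genes was not computed, so the values are not shown to be particular to the members.

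Outside the members, the 3 genes most alike in pattern were found by Pearson's r over the 22 libraries with group means removed, among 12332 genes with a mean of at least 1 FPKM. As the top 3 of so many, their r are high by selection, and rho and the r without 2 libraries rest on the same libraries. Shared depth and tissue makeup enter here too. The best r of other genes was not computed, so the likeness is not shown to be particular to the members. Mmp2 was most like Igfbp7 (r 0.934, rho 0.940, 0.899 without the 2 farthest libraries), Svep1 and Lamc1, the last of which encodes a laminin chain. Timp3 was most like Timp2, another inhibitor of the family (r 0.921, rho 0.832, 0.872), Tacc1 and Msrb3. Timp1 was most like Grem1 (r 0.927, rho 0.855, 0.83), a secreted antagonist of bone morphogenetic proteins, Il33 and Medag. Adamts1 was most like Crispld2 (r 0.908, rho 0.898, 0.851), Cebpd and Sh3pxd2b. Adamts4 was most like Ctps (r 0.874, rho 0.798, 0.770), Pmm2 and the neutrophil gene Retnlg. Mmp3 was most like Aldh1a3 (r 0.881, rho 0.784, 0.732), Ctps and Ptgs2, which encodes the inducible cyclooxygenase. Mmp10 was most like the interleukin 33 receptor gene Il1rl1 (r 0.849, rho 0.762, 0.769), Fzd1 and Mfsd2a. Mmp14 was most like the Fc receptor gene Fcgr3 (r 0.893, rho 0.800, 0.804) and the complement genes C1ra and C4b. Mmp7 was most like the intestinal peptide receptor gene Vipr2 (r 0.901, rho 0.851, 0.844), Sybu and Bach2. Mmp9 was too low for this comparison.

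In the other protease families both rises and falls were called, beside 27.1% of all genes tested called in DSS, 34.1% in HMLS and 26% in TM against CON. Of 23 other ADAMTS and ADAMTS-like genes 14 were tested in DSS against CON, where 4 rose and 2 fell. Adamts15 rose by 1.09 ± 0.24 (SE, adjusted p = 0.00513), Adamtsl2 by 0.84 (0.00666), Adamts9, a versican-cleaving protease, by 0.83 (0.0094) and Adamtsl5 by 0.58 (0.0271). Adamts10 fell by 0.55 (adjusted p = 0.0197) and Adamts17 by 0.33 (0.0467). In HMLS against CON 1 of 13 rose and 2 fell, and in TM against CON 3 of 14 rose and none fell. Adamts15 was called as higher in HMLS (0.97, adjusted p = 0.00154) and TM (1.30, 0.000485) too. The median log2 fold change of this list was 0.01 in DSS, 0.04 in HMLS and 0.01 in TM against CON, beside -0.01, 0.00 and 0.01 over all genes tested.

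Of 17 other Mmp genes 6 were tested in each comparison with CON, and none of those tested rose in DSS or HMLS. The rest were below the filter on low values and could not be called. The median log2 fold change of the tested genes was -0.37 in DSS, -0.30 in HMLS and -0.19 in TM. Mmp23 fell by 0.84 in DSS (adjusted p = 0.00317), by 0.99 in HMLS (0.00155) and by 0.81 in TM (0.0113). In TM the membrane-bound Mmp15 rose by 0.39 (adjusted p = 0.04), and in HMLS Mmp28 fell by 0.81 (0.0132). Of 5 other inhibitors 3 were tested and none was called in limma, with Timp4 at -0.53 in DSS against CON (adjusted p = 0.060) the closest and a median of -0.28.

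Among 13 ADAM and meprin genes 10 were tested in DSS against CON, where 2 rose and 2 fell, with a median of -0.08. In HMLS against CON 1 of 10 rose and 3 fell, and in TM against CON 1 of 10 rose and none fell. Adam10, a sheddase of Notch and cadherins, rose by 0.74 (adjusted p = 0.00365) and Adam9 by 0.24 (0.0488), while Adamdec1, made by macrophages and stromal cells in gut, fell by 1.55 (0.0144) and Bmp1, a procollagen processing protease, by 0.34 (0.041). Adam10 was also called as higher in HMLS (0.71, adjusted p = 0.00313) and TM (0.70, 0.00168). Plaur, the receptor of the urokinase plasminogen activator, was the 1 gene of 4 tested in plasminogen activation that passed in DSS (1.01, adjusted p = 0.0103), and it also rose in HMLS (1.05, 0.00517) and TM (1.32, 3.38e-05). Plau, which encodes urokinase, fell by 0.68 in HMLS (adjusted p = 0.029).

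Genes known to induce or activate metalloproteases included several that rose. In DSS against CON 4 of 13 tested rose and 1 fell: Tnf, a cytokine, rose by 1.53 ± 0.18 (SE, adjusted p = 0.000317), Furin, a convertase that activates Mmp14 and ADAMTS proenzymes, by 1.09 (0.00154), and the AP-1 subunit genes Jun by 1.19 (0.00177) and Fosl2 by 0.81 (0.00383). The transcription factor gene Ets1 fell by 0.63 (adjusted p = 0.0379). The other 8 tested were not called. The median of the list was 0.31 in DSS. Of 12 tested, 4 rose, 3 fell and 5 were not called in HMLS, and 5 rose, 1 fell and 6 were not called in TM. Of all genes tested, 14% rose and 13.1% fell in DSS, 17.5% and 16.6% in HMLS, and 14.3% and 11.8% in TM. Tnf differed by 0.69 in HMLS (adjusted p = 0.00987) and by 1.45 in TM (0.000308).

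Of 24 matrix genes that these enzymes can cleave 23 were tested, and 11 fell in DSS, 17 in HMLS and 4 in TM against CON, while none rose. Of all genes tested, 13.1% fell in DSS, 16.6% in HMLS and 11.8% in TM. The median log2 fold change of the list was -0.48 in DSS, -0.71 in HMLS and -0.28 in TM. In DSS the smallest p among them belonged to the collagen genes Col6a3 (-1.25 ± 0.15, adjusted p = 0.00027), Col3a1 (-1.66 ± 0.25, 0.000851), Col1a1 (-1.06 ± 0.18, 0.00157) and Col5a2 (-1.07 ± 0.19, 0.00198). Versican, a substrate of Adamts1 and Adamts4, had its gene Vcan fall by 0.57 in HMLS (adjusted p = 0.0182). Several of these genes also stand in the fibroblast marker list, whose sums are given with Mmp2. In the 3 comparisons among colitis groups no gene of any of these lists was called in limma.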

How the data were processed

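Colon RNA was extracted with Trizol and made into libraries with a TruSeq stranded total RNA kit, per the labels. Sequencing reads were handled with bcl2fastq 2.20, Bowtie (version not given), TopHat2 2.0.13 and Cufflinks 2.2.0 on mm10, per the submitters' processing notes, with no settings. The authors deposited 1 table of 23997 genes, whose values were read as FPKM from the tool names, since the table names no unit, and read counts and mapped percent per library. Because FPKM is relative to each library's total, a rise of very abundant genes lowers all others. No count test was run, since reads per gene are unknown.

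Groups came from the labels. The test was limma 3.58.1 (R 4.3.3) on log2(FPKM + 1), moderated, with an intensity trend and robust variance, with Benjamini-Hochberg adjustment over all genes tested and a threshold of 0.05. The filter asked for 1 FPKM or more in 4 libraries of a fit. A fit against CON held 2 groups, and the 3 comparisons among colitis groups shared a fit. Scripts were tested on simulated data. The members and the gene lists were chosen with earlier results of these data known. All members were named; from each list, up to 4 called genes with the smallest p in each direction in DSS against CON, or else the 1 with the smallest p. Genes called in HMLS or TM against CON outside that rule (Mmp15, Mmp28, Plau, Vcan) were chosen after their values were seen. Of the Paneth cell list, Lyz1 was likewise chosen.

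Alternatives were a pseudocount of 0.1, no filter, median-ratio scaling, all 4 groups in 1 fit, percent of reads mapped as a covariate, the replicate number as a block, leaving out each library and exact permutation tests. For TM against DSS, after group means were removed, libraries that share a number had correlations of 0.137 to 0.460 in 3 of 3 pairs. All were past the limit of 0.1, and 1 of 3 was the best match. The number is known only from the library titles, so whether it pairs these libraries is not settled. The values given are from the fit without the block unless stated, and the block changed no call in TM against DSS. Gene positions are those of GENCODE on GRCm38 and promoter sequences those of RefSeq on GRCm38.p6. No 2 libraries held identical values, and 27 gene names with the form of calendar dates were kept as listed.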

Additional observations from a re-analysis of the deposited data

Results flagged for a closer look

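In 5 of 40 sets of a gene and a group, the highest or lowest library stood apart from the rest of its group by Dixon's criterion, which chance meets in about 1 of 20. Mmp2 was 39.45 FPKM in TM 3, with the next TM library at 19.2. Adamts4 was 14.88 FPKM in TM 3, with the next at 6.73. Mmp10 was 1.266 FPKM in CON 4, with the next CON library at 0.347. Timp1 was 1.505 FPKM in CON 1, with the next at 0.846. Mmp14 was 11.31 FPKM in CON 8, the lowest of CON, with the next at 17.8.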

How the results depend on the processing

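Over all comparisons and alternatives, 908 member values kept their direction and side of the threshold, 35 reversed, 13 passed where they had not and 20 no longer passed. Of the 13, 4 were exact permutation tests, which were read at an unadjusted p under 0.05 and so at a looser threshold. Settings in which a member fell below the filter were not counted. The Adamts1 and Adamts4 calls in TM against CON held under every alternative run, with log2 fold changes of 1.81 to 2.27 and 1.77 to 2.12 when single libraries were left out. With the percent of reads mapped as a covariate, which every DSS library has lower than every CON library, 4 genes were higher and 22 lower in DSS against CON, and 1540 higher in HMLS against CON. Members that reversed there were Mmp3 (-0.605), Mmp7 (0.34) and Timp3 (-0.27) in DSS against CON, Mmp3 (0.093), Mmp14 (0.13) and Adamts1 (0.038) in HMLS against DSS, and Mmp10 (-0.042) and Timp1 (0.20) in TM against DSS. The share of mapped reads and the treatment cannot be told apart in DSS against CON. The replicate block gave 1125 genes higher and 1051 lower in DSS, 319 and 434 in HMLS and 1086 and 914 in TM against CON, and 1 gene lower in HMLS against TM. With it Adamts4 in DSS (1.05, adjusted p = 0.0899), Adamts1 in HMLS (1.01, 0.135) and Timp3 in TM (0.45, 0.0753) against CON did not pass. It reversed Mmp7 (-0.37) and Timp3 (-0.13) in HMLS against DSS, and Mmp3 (-0.40), Mmp10 (-0.12), Timp3 (-0.18) and Adamts1 (-0.17) in TM against DSS. Outside TM against DSS the same-numbered pairs did not all pass a correlation of 0.1. Against CON their correlations ran from -0.211 to 0.335 in DSS, -0.125 to 0.0797 in HMLS and -0.00138 to 0.208 in TM. They ran from -0.354 to 0.364 in HMLS against DSS and from -0.217 to 0.0713 in HMLS against TM. Whether the number pairs any libraries is not settled.

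Leaving out single libraries reversed uncalled values. In DSS against CON the ranges were -0.26 to 0.12 for Mmp14, -0.40 to 0.10 for Mmp7 and -0.14 to 0.34 for Timp3. In HMLS against CON Mmp7 ran from -0.24 to 0.78. In HMLS against DSS the ranges were -0.89 to 0.0097 for Mmp3, -0.37 to 0.0091 for Mmp14, -0.13 to 0.90 for Mmp7 and -0.037 to 0.44 for Timp3, with 0 to 1 gene higher. In TM against DSS Mmp10 ran from -0.20 to 0.50 and Timp1 from -0.27 to 0.20, and in HMLS against TM Mmp7 ran from -0.76 to 0.26, with 0 to 1 gene higher and 0 to 2 lower. These genes appeared when HMLS 3 was left out. The cause of these changes was not tested. The unknown number of reads per gene limits Mmp9, Mmp10 and Timp1 most, since most of their values lie under 1 FPKM.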

Other observations

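Summed over the 6 Mmp members, FPKM ran from 24.3 to 77.2 in DSS (median 46.7), 25.7 to 61.8 in HMLS (37.3), 46.0 to 91.7 in TM (61.7) and 28.5 to 51.9 in CON (44.4). The 2 ADAMTS members summed to 4.48 to 35.3 in DSS, 1.56 to 12.1 in HMLS, 11.2 to 39.5 in TM and 2.005 to 4.13 in CON. The 2 inhibitors summed to 10.9 to 43.9 in DSS, 20.8 to 40.3 in HMLS, 20.2 to 47.5 in TM and 17.5 to 25.0 in CON, most of it Timp3, with Timp1 at 7.55 FPKM of the highest TM sum. All 8 smooth muscle markers were detected, with sums of 577 to 2239 FPKM in DSS, 1330 to 2483 in HMLS, 833 to 1806 in TM and 1298 to 2526 in CON, and the 8 endothelium markers summed to 15.8 to 33.3 in DSS, 17.4 to 31.7 in HMLS, 27.8 to 36.9 in TM and 22.9 to 47.1 in CON.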
